A study of Homo sapiens with 12 samples.

Results

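The comparison set HaCaT cells carrying a short hairpin RNA against NRF2 (shNRF2) directly against HaCaT cells carrying one against UTX (shUTX), with 3 RNA-seq libraries on each side. Each side had an untreated library, one after 24 h with 100 µM hydrogen peroxide (H2O2), and one after 24 h with 25 µg/mL cerium oxide nanoparticles (CeO2), with no replicate of any combination. HaCaT is an established line of human keratinocytes, and both hairpin lines share that parent. The 6 libraries are part of a series of 12, whose other 6 carried a control hairpin (shControl) or one against MLL1 (shMLL1), and the control hairpin libraries stayed out of the fit. The labels name 1 derivative for each hairpin and do not say whether it is a clone or a pool, which hairpin sequence it carries, or whether libraries came from separate cultures. An effect of silencing and any other difference between the lines therefore cannot be told apart, and p-values measure the spread among these libraries, which may be technical.

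NRF2, encoded by NFE2L2, is a transcription factor that is held down by KEAP1 in resting cells and, when oxidants or electrophiles modify KEAP1, drives genes of glutathione synthesis, NADPH supply and detoxification. UTX, encoded by KDM6A, is a demethylase that removes methyl groups from lysine 27 of histone H3 and acts with the MLL3 and MLL4 complexes at enhancers. In keratinocytes both have been tied to the balance between proliferation and differentiation, NRF2 also to the cornified envelope. The direct comparison asks in which genes the lines with these hairpins differ from each other.

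Genes were read by name only where they lie in 5 stretches of GRCh38 or in the mitochondrial genome, since names and reads match there. The stretches are chr5:218241-44820428, chr9:19375715-37801437, chr11:236546-842545, chr18:3247481-12344320 and chr19:867630-6393981. They and the mitochondrial genome hold 1587 of the 61498 entries of the tables, 535 of them protein coding, and these are the members described below. Of the members, 803 had no count in any of the 6 libraries and 471 passed a filter of at least 1 CPM (read counts scaled to the library total) in at least 3 of the 6 libraries. Those that passed include members that passed only through the side on which they are high.

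Total counts of the 6 libraries ran from 5388335 to 7670446, so a count of 0 allows up to 3 counts, or 0.391 to 0.557 CPM, counting error only. Across tested entries, log2 values had a Pearson r of 0.989 to 0.992 between libraries of 1 line (genes are not independent replicates) and 0.970 to 0.974 between lines. The entries of the targeted genes lie outside the stretches. NFE2L2 (chr2:177227595-177392697) had 0, 0 and 0 counts in shNRF2 (in the order untreated, H2O2, CeO2) and 1, 1 and 4 in shUTX; the 0 allows a sum of up to 3.69 (exact 95% Poisson interval) and the sum of 6 in shUTX runs from 2.2 to 13.1. KDM6A (chrX:44873177-45112602) had 1, 0 and 1 counts in shUTX, a sum of 2 (0.242 to 7.22), and 4, 4 and 5 in shNRF2, a sum of 13 (6.92 to 22.2). In the control line NFE2L2 had 1, 12 and 16 counts and KDM6A 6, 5 and 6, and in shMLL1 they had 1, 1 and 3 and 5, 4 and 4. Outside the stretches names may not belong to the counts, so these values, which are near the floor, are given as listed and check no label. The defining keratins of keratinocytes, KRT5 and KRT14 among them, lie outside the stretches and were not read by name, whereas the epidermal genes PKP3 and AQP3 inside them were read at 1605 to 2104 CPM and 221 to 405 CPM.

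Promoter sequences of genes that stood higher in shNRF2 are shown first. Of 7 tested interferon-linked genes 6 stood higher, as did CA9 and MIR210HG, the 2 tested genes of the hypoxia-regulated list. The factors that control such genes have well described motifs. Interferon-stimulated genes are read through the interferon-stimulated response element, here searched as GAAANNGAAA, and as GAAANGAAA with 1 base between the repeats. Hypoxia genes are read through the core ACGTG, which hypoxia-inducible factors bind. Each sequence is the 250 bases before the RefSeq start of the gene (GRCh38.p14, 5′ to 3′ on the gene's strand), with matches on either strand in capitals and position -1 next to the start.
IFITM1 (chr11:313790-314039, plus strand): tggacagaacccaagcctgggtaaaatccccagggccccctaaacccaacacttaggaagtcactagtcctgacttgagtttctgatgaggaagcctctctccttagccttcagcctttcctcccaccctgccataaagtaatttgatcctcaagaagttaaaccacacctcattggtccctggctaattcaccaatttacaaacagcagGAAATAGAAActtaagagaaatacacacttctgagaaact
IFITM3 (chr11:320861-321110, minus strand): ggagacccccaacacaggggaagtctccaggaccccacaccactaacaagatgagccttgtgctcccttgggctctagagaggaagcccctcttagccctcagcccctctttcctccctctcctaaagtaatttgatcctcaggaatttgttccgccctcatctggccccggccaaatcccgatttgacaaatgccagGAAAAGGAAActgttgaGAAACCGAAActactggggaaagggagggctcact
RIGI (chr9:32526197-32526446, minus strand): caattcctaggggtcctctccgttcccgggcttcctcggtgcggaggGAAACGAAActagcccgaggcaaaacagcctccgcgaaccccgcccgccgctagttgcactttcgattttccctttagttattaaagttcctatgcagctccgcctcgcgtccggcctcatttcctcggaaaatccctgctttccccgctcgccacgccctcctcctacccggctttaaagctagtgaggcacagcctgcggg
CA9 (chr9:35673678-35673927, plus strand): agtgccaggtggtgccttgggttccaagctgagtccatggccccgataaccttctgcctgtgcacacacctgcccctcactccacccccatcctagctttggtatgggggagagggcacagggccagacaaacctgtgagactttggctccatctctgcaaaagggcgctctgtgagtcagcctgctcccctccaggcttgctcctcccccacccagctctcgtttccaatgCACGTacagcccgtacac
MIR210HG (chr11:568458-568707, minus strand): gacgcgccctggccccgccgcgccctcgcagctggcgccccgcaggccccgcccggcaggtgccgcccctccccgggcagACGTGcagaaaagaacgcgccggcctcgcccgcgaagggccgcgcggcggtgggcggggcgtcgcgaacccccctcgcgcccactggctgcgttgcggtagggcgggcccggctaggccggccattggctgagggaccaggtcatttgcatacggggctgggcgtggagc
The IFITM1 window held GAAANNGAAA once, at -40 to -31, and IFITM3 held it at -52 to -43 and at -35 to -26. RIGI held only the form with 1 base between, at -203 to -195. SIGIRR, the other called interferon-linked gene with a window, held neither form and is not shown, and IFITM2 and IRF7 had no window in the table. CA9 held the hypoxia core on the other strand at -18 to -14 and MIR210HG on its own strand at -170 to -166. In all 35116 promoter windows, GAAANNGAAA occurred in 3.02%, GAAANGAAA in 2.69% and ACGTG in 18.5%. Among the 337 tested members with a window the shares were 3.26%, 2.08% and 28.2%. All windows include genes that did not pass the filter, so for every motif here the 2 shares come from unlike sets. Their gap was not tested. By direction, GAAANNGAAA was in 6 of 114 members called higher, IFITM1 and IFITM3 among them, and in 4 of 113 called lower. These counts are too few to read a difference, and none was tested. GAAANGAAA was in 2 and 4 and ACGTG in 28 and 31, so neither of these was more frequent among the higher members. The core of the antioxidant response element that NRF2 binds, searched as TGACNNNGC, occurred in 10.9% of all windows and 16.3% of these members, 20 called higher and 20 called lower. The motifs were chosen after values and sequences had been seen, the 1-base form after RIGI showed no match to the other, and a match is only a description of letters in this window.

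Of the 471 members tested, 292 differed between shNRF2 and shUTX, 143 higher and 149 lower in shNRF2. That is 62% of them, against 42.7% of all 10181 entries tested (21.3% higher and 21.5% lower). With a mean of at least 5 CPM, 70.1% of 385 members and 50.8% of 7470 entries were called, so the share was higher among members there as well. The reason for this was not tested. Of the 10181 entries, 9710 are not members, and outside the stretches names may not belong to the counts. Without adjustment, 5022 entries had a p below 0.05. The test was edgeR's quasi-likelihood test, two-sided, on the 6 libraries with treatment as a block, and a gene was called at a Benjamini-Hochberg adjusted p of 0.05 over all 10181 entries. The test leaves 2 residual degrees of freedom, so it leans on a spread shared across genes. Which libraries entered the fit and how a trend with transcript length was removed changed this picture. With all 12 libraries in the fit 188 members were called, 95 higher and 93 lower. In a separate fit of the 6 libraries, a smooth curve of level against transcript length, drawn through 359 coding members, was taken out of each library. Of 303 members then called, 108 were higher and 195 lower, so that 35.6% of the calls were higher against 49% without that step. This form also shifts the level of the members as a whole. A form centred on each library's median, chosen after seeing the data, gave 134 higher and 150 lower, with 47.2% of the calls higher. Exons of 122 of the 292 called members overlap those of another gene, and the sources used here do not say whether counting used strand.

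Most of the called differences were small. The median called member differed by 1.34-fold, and 191 of the 292 by less than 1.5-fold. Over 2-fold there were 41 members higher in shNRF2 and 8 lower, that is 8.7% and 1.7% of those tested, against 5.6% and 1.79% of all entries. Of these, 18 had a mean under 5 CPM. The libraries of the lines did not overlap for 144 members higher and 148 lower in shNRF2, 30.6% and 31.4%, against 23.9% and 22.7% of all entries. With plain CPM, which leaves out the scaling of library totals, those counts were 172 and 120, against 28.8% and 17.9% of all entries.

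Every stretch and the mitochondrial genome held calls in both directions, to be read against 21.3% higher and 21.5% lower over all entries; differences among stretches were not tested. On chromosome 19, 57 of 151 tested members were higher and 26 lower in shNRF2, with a median difference of 0.11, and on chromosome 11, 15 of 37 were higher and 10 lower. On chromosome 5 there were 33 higher and 52 lower of 133, on chromosome 9 29 and 42 of 100 with a median of -0.16, and on chromosome 18 7 and 11 of 34. Of 16 tested mitochondrial entries 2 were higher and 8 lower. Entries that do not code for protein gave 17 higher and 18 lower of 99 tested.

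**Figure D1:**
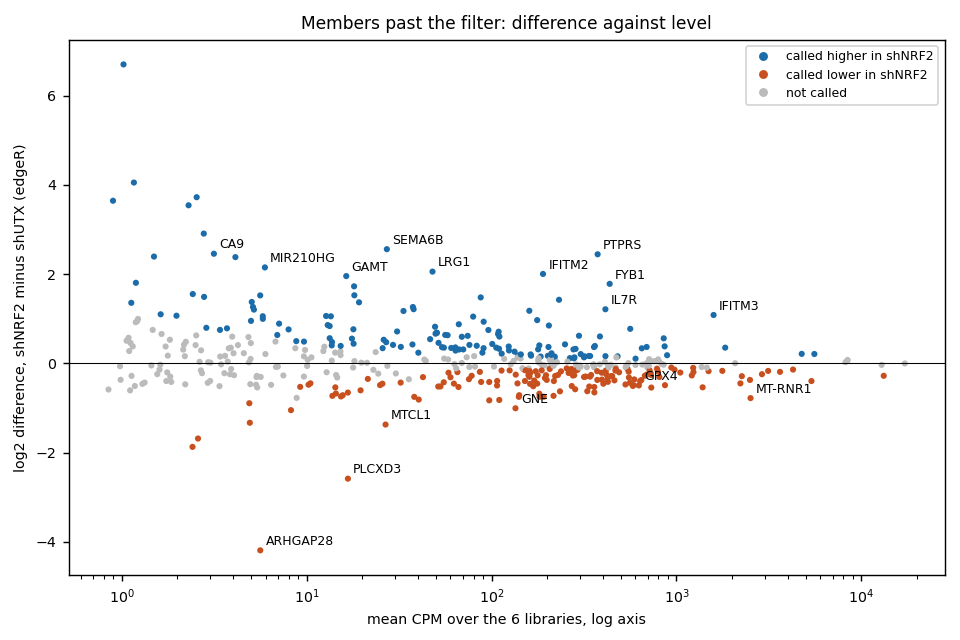
Log2 difference (shNRF2 minus shUTX, edgeR) of each of the 471 tested members against its mean CPM over the 6 libraries on a log axis, coloured by call. Differences beyond 2-fold lie mostly above 0 and below 1000 CPM, and called genes above 1000 CPM lie between -0.78 (MT-RNR1) and 0.35 (PKP3) apart from IFITM3 at 1.08.

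Per-library values below are CPM in the order untreated, H2O2, CeO2, with library totals scaled by TMM (trimmed mean of M-values) over the 12 libraries. Differences are edgeR log2 values of shNRF2 minus shUTX ± SE, and adjusted p-values are edgeR's over all tested entries. Counts of calls in a list are to be read against all tested members, of which 62% were called, 30.4% higher and 31.6% lower. Over all entries tested the share called was 42.7%. Whether a list differs from these shares was not tested.

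Of the genes named by size, 2 of axon guidance stood highest above shUTX. SEMA6B, a membrane-bound semaphorin (chr19:4542593-4559808), stood at 44.1, 43.7 and 51.4 CPM in shNRF2 and 8.58, 7.0 and 8.11 CPM in shUTX. All 3 shNRF2 libraries lay far above all 3 shUTX libraries, a difference of 2.56 ± 0.12 or 5.9-fold (adjusted p = 5.19e-15). PTPRS, a receptor tyrosine phosphatase that binds proteoglycans at the cell surface (chr19:5158495-5340803), stood at 576, 655 and 669.6 CPM against 109.6, 129 and 111 CPM. The groups were again apart in every treatment, 5.45-fold (2.45 ± 0.05, adjusted p = 3.2e-22). SEMA5A, a semaphorin with thrombospondin repeats (chr5:9035026-9546075), had 215, 229 and 221 CPM against 85.8, 119 and 91.5 CPM, a difference of 1.18 ± 0.06. UNC13B, which primes synaptic vesicles, differed by 0.36 ± 0.08. In the other direction, TRIO, a guanine nucleotide exchange factor, differed by -0.49 ± 0.04 with 473, 526 and 466 CPM against 665, 711 and 681 CPM. MYO10, the myosin of filopodia, differed by -0.19 ± 0.04 with overlapping libraries, and lost the call with all 12 libraries in the fit or with the centred length trend removed. Of the 8 tested genes of this list 4 were higher and 2 lower. BASP1, a growth cone protein, at -0.11 ± 0.06, and PTPRM, another receptor phosphatase, at 0.10 ± 0.25, did not pass. The control line stood near shNRF2 for PTPRS (503, 511 and 626 CPM) and above both lines for SEMA6B (99.2, 71.7 and 83.6 CPM).

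An antisense entry without a symbol, ENSG00000274447 (chr19:5294247-5294696), lies inside the span of PTPRS. It had 19, 11 and 13 counts in shNRF2 and 0, 0 and 0 in shUTX, the only tested member without a count on one side. It was chosen here after its values were seen. The limits that 0 counts allow in shUTX are 0.557, 0.517 and 0.460 CPM, and no fold is given, since reads of the entry and of PTPRS cannot be told apart without strand.

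SEMA6B has neighbours that differed with it. PLIN4, LRG1, SEMA6B and TNFAIP8L1 follow each other among the tested coding genes of chromosome 19, and all 4 were higher in shNRF2. LRG1, a secreted leucine-rich glycoprotein of the acute phase (chr19:4536409-4540474), had 80.2, 69.7 and 81.6 CPM against 17.3, 24.2 and 14.7 CPM, a 4.16-fold difference (2.06 ± 0.12, adjusted p = 1.48e-13). TNFAIP8L1, of the TNFAIP8 family of lipid-binding proteins (chr19:4639518-4655568), had 130.0, 110.5 and 146 CPM against 46.3, 43.4 and 48.8 CPM (1.48 ± 0.07). PLIN4, a coat protein of lipid droplets (chr19:4502180-4518465), had 42, 37 and 69 counts against 9, 4 and 10 (2.38 ± 0.31). The next genes on that side, MYDGF and DPP9, stood at -0.07 ± 0.05 and 0.03 ± 0.04 and did not pass. PLIN4 overlaps exons of HDGFL2 and TNFAIP8L1 those of MYDGF on the other strand, so the source of those reads is uncertain.

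**Figure D2:**
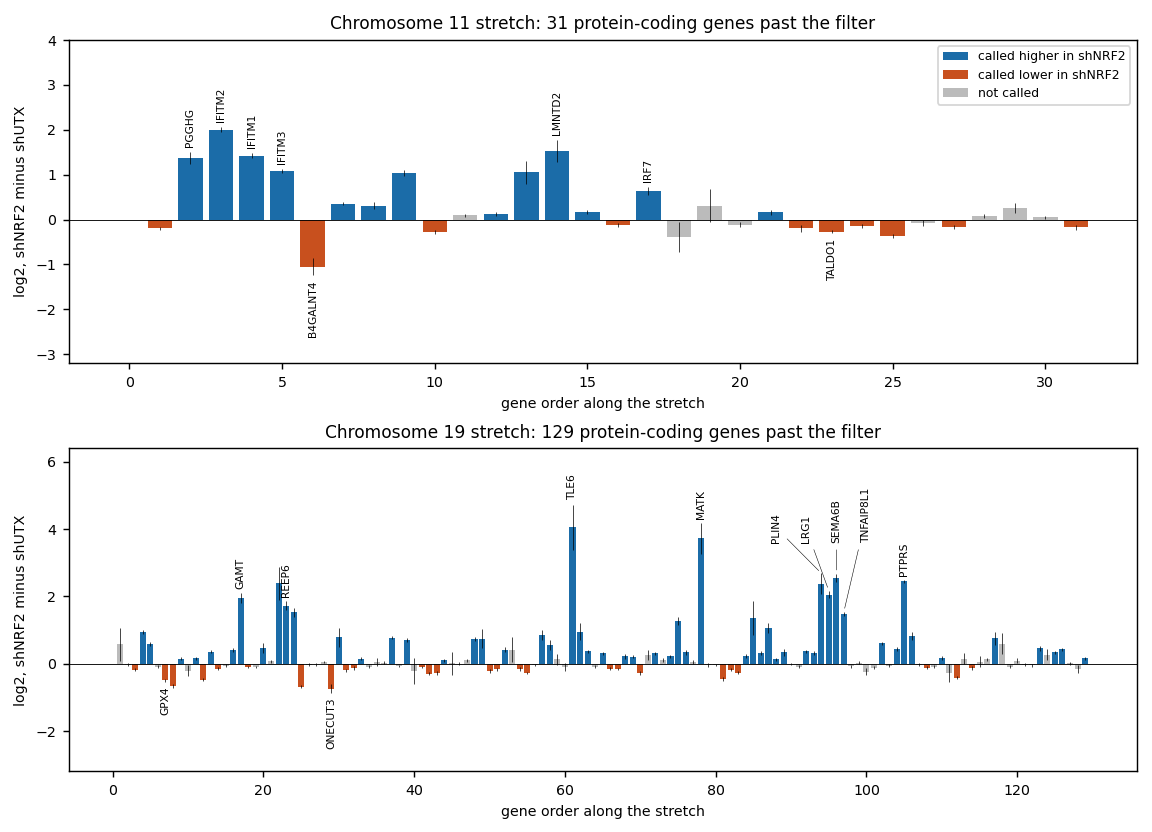
Log2 difference (shNRF2 minus shUTX, bars, with SE) of the protein-coding genes past the filter, in their order along the chromosome 11 and chromosome 19 stretches, coloured by call. PGGHG, IFITM2, IFITM1 and IFITM3 form a run of 4 higher genes on chromosome 11, and PLIN4, LRG1, SEMA6B and TNFAIP8L1 one on chromosome 19; the wide bars of error at TLE6 and MATK belong to genes with few counts.

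Interferon-linked genes stood higher in shNRF2 than in shUTX. Of the 12 members of the list 7 passed the filter, 6 of them higher and none lower, with a median difference of 1.08, against -0.02 over all tested members and 0.00 over all entries. IFITM3, a membrane protein that blocks the fusion of viruses with endosomes (chr11:319669-327537), had 2143, 2135 and 2198 CPM against 995, 1068 and 996 CPM, 2.12-fold (1.08 ± 0.04, adjusted p = 2.5e-17). IFITM2 (chr11:307631-315272) had 304, 307 and 302 CPM against 67.3, 79.5 and 80.5 CPM, 4.01-fold (2.0 ± 0.06). IFITM1 (chr11:313506-315272) had 327, 331 and 355 CPM against 124, 123 and 131 CPM (1.43 ± 0.05). The 3 genes are close paralogs and the annotated exons of IFITM1 and IFITM2 overlap, so their counts are uncertain as separate values. The control line stood nearer to shNRF2 than to shUTX for IFITM2 (346, 223 and 230 CPM) and IFITM1 (302, 192 and 221 CPM). RIGI, a sensor of viral RNA (chr9:32455705-32526324), had 57, 46.5 and 55.2 CPM against 21.2, 27.3 and 20.3 CPM, a difference of 1.21 ± 0.11 (adjusted p = 1.49e-09). IRF7, the transcription factor that amplifies type I interferon (chr11:612553-615999), had 71.1, 64.6 and 75 CPM against 40, 50.8 and 45.7 CPM (0.63 ± 0.08). SIGIRR, a brake on receptors of the interleukin-1 family, differed by 0.31 ± 0.07 and lost the call with all 12 libraries in the fit. TICAM1, an adaptor of Toll-like receptor 3, had 190.4, 226 and 181 CPM against 198, 232 and 214 CPM and did not pass. With the length trend removed, or without either H2O2 library, TICAM1 was called lower, and 6 genes were higher and 1 lower. The interferon genes IFNB1, IFNE and IFNK, members of the same list, did not pass the filter.

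The same stretch of chromosome 11 holds PGGHG, an enzyme that removes glucose from collagen's hydroxylysine sugars (chr11:289135-296107), which had 24.7, 32.6 and 25.9 CPM against 8.58, 12.3 and 11.2 CPM (1.37 ± 0.13). It lies directly before IFITM2 among the tested coding genes. B4GALNT4, which adds N-acetylgalactosamine to glycans, lies directly after IFITM3 and was lower in shNRF2, with 4.94, 4.77 and 6.33 CPM against 10.7, 10.5 and 12.2 CPM (-1.05 ± 0.19).

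In the hypoxia-regulated list, CA9 and MIR210HG passed the filter and both were higher in shNRF2. The list rests on these genes alone, since AHRR, which was also placed in it, did not pass the filter. CA9, the carbonic anhydrase at the surface of hypoxic cells (chr9:35673856-35681159), had 27, 36 and 50 counts in shNRF2 and 3, 5 and 9 in shUTX. That is 3.81, 5.92 and 6.33 CPM against 0.572, 0.876 and 1.4 CPM, a difference of 2.46 ± 0.34 (adjusted p = 1.88e-06). MIR210HG is the transcript from which microRNA 210 is cut (chr11:565660-568457), and it had 8.74, 11 and 9.36 CPM against 1.72, 2.98 and 1.87 CPM (2.15 ± 0.25, adjusted p = 8.62e-08). Both lines lay far below the control hairpin line, which had 60.1, 45.1 and 41.3 CPM of CA9 and 53, 41.1 and 35.4 CPM of MIR210HG. Exons of CA9 overlap ARHGEF39 on the other strand, which leaves part of its reads uncertain, and a filter at 5 CPM leaves CA9 out.

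Tested epidermal genes also stood mostly higher in shNRF2. Of the 9 members of the list 6 passed the filter, 5 of them higher and 1 lower, with a median of 0.49. TJP3, a scaffold of tight junctions (chr19:3708109-3750813), had 56.1, 40.8 and 62.3 CPM against 18.7, 25.7 and 21.8 CPM, 2.4-fold (1.26 ± 0.12, adjusted p = 4.67e-09). TINCR, a gene tied to keratinocyte differentiation (chr19:5558167-5578349), had 65.7, 61.5 and 61.2 CPM against 29.9, 49.9 and 28.7 CPM (0.82 ± 0.11). The H2O2 library was the highest of shUTX and still below all 3 of shNRF2. AQP3, the glycerol and water channel of the epidermis, had 370.2, 306 and 405 CPM against 221, 243 and 239 CPM (0.62 ± 0.06), and PKP3, a plaque protein of desmosomes, 1969, 2103 and 2104 CPM against 1605, 1614 and 1624 CPM (0.35 ± 0.04). STAP2, an adaptor of kinase signalling, differed by 0.14 ± 0.04 and lost the call under 8 alternatives, with a sign change to -0.03 with the length trend removed. ACER2, a ceramidase of the Golgi, was the gene lower in shNRF2, with 20.3, 23.7 and 20.8 CPM against 26.9, 35.9 and 26.7 CPM (-0.46 ± 0.11). In the control line TINCR stood at 7.08, 6.42 and 5.5 CPM, below both lines.

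Ciliary genes stood higher in shNRF2 in 7 of 9 tested cases and lower in none, with a median of 0.80. IFT74, a subunit of the transport complex of cilia (chr9:26947039-27062930), had 90.5, 80.2 and 87.4 CPM against 52, 41.9 and 47.1 CPM, 1.84-fold (0.88 ± 0.07, adjusted p = 1.75e-10). FSD1, a protein of centrosomes and microtubules, had 16.8, 20.7 and 17.3 CPM against 7.62, 9.81 and 8.89 CPM (1.06 ± 0.15). CPLANE1, of the planar polarity complex that builds cilia, differed by 0.54 ± 0.09, and DNAH5, a motor of ciliary beating, by 0.53 ± 0.11 with overlapping libraries. LRRC56, which serves the assembly of dynein arms, differed by 1.06 ± 0.25, but its exons overlap LMNTD2, a lamin tail domain gene on the other strand that was also higher, with 8.88, 8.38 and 7.72 CPM against 2.86, 3.15 and 2.65 CPM (1.52 ± 0.24). SPEF2, of the sperm tail, differed by 0.80 ± 0.32 and lost the call under 10 alternatives. RFX2, a transcription factor of ciliary genes, had 59.2, 56.9 and 63.7 CPM against 58.7, 56.4 and 54.7 CPM and did not pass.

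**Figure D3:**
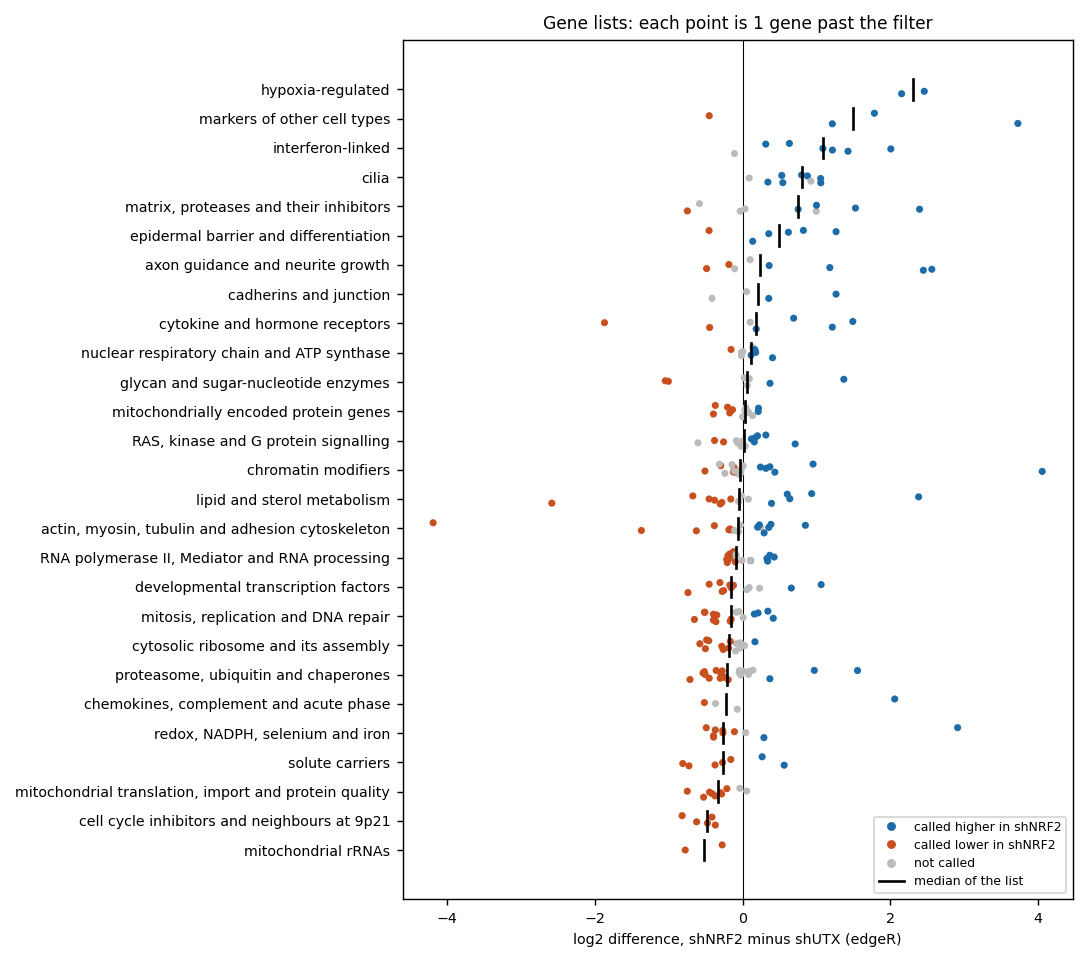
Log2 difference (shNRF2 minus shUTX) of each tested gene of the 27 lists, 1 point a gene coloured by call, with the median of each list as a black bar; lists are ordered by that median. Hypoxia-regulated, interferon-linked and ciliary genes hold no gene called lower, and the mitochondrial translation, mitochondrial rRNA and chromosome 9 cell cycle inhibitor lists no gene called higher.

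In a mixed list of redox, NADPH, selenium and iron genes, 7 of 10 tested were lower in shNRF2 and 2 higher, with a median of -0.27. Not every gene of this list acts against oxidants or supplies NADPH. GPX4, the selenoenzyme that reduces lipid hydroperoxides (chr19:1103926-1106791), had 473, 605 and 483 CPM against 799, 759.8 and 639 CPM, 1.41-fold lower (-0.49 ± 0.05, adjusted p = 4.12e-08). The control line had 672, 1056 and 1156 CPM. NADK2, the kinase that makes mitochondrial NADP, had 138, 128 and 126 CPM against 196, 150.2 and 172 CPM (-0.40 ± 0.06). ACO1, the cytosolic aconitase that also senses iron, had 98.7, 82.9 and 96.2 CPM against 123, 123 and 121 CPM (-0.39 ± 0.06). MTRR, which keeps methionine synthase active, differed by -0.37 ± 0.04. TALDO1, of the pentose phosphate pathway and a known NRF2 target, had 1106, 1058 and 1127 CPM against 1326, 1328 and 1323 CPM (-0.27 ± 0.04) and lost the call with all 12 libraries in the fit. SELENOP, the plasma carrier of selenium, was higher at low counts, 41, 18 and 47 against 6, 3 and 2 counts (2.91 ± 0.41), and its exons overlap CCDC152 on the other strand. NUDT2, which cleaves dinucleoside tetraphosphates, differed by 0.29 ± 0.07 and lost the call with DESeq2, with all 12 libraries in the fit and with either form of the length trend removed, as planned to a value of -0.05. NNT, the mitochondrial transhydrogenase that makes NADPH, had 268, 263 and 251 CPM against 259.6, 258 and 245 CPM and did not pass.

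Genes of mitochondrial translation, import and protein quality were lower in shNRF2 in 8 of 10 tested cases and higher in none, with a median of -0.34. TOMM5, a small subunit of the outer membrane translocase (chr9:37582646-37592642), had 104, 101 and 109 CPM against 181, 166 and 183 CPM, 1.68-fold lower (-0.75 ± 0.05, adjusted p = 1.83e-11). MRPS30, a protein of the mitochondrial ribosome, had 288, 318 and 277 CPM against 428, 436 and 409.9 CPM (-0.53 ± 0.04). FASTKD3, a regulator of mitochondrial RNA, differed by -0.45 ± 0.05, LONP1, the matrix protease, by -0.41 ± 0.05, and SLC25A22, a glutamate carrier, by -0.37 ± 0.04. MRPL36, at -0.30 ± 0.05, lost the call with all 12 libraries in the fit, under which 5 of the 10 were lower. MRPL54 and CLPP did not pass.

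On the mitochondrial genome both rRNAs were lower, and the protein genes had no stable direction. MT-RNR1, the RNA of the small mitochondrial ribosomal subunit (chrM:648-1601), had 1814, 2153 and 1612 CPM against 3150.2, 3337 and 3037 CPM, 1.72-fold lower in shNRF2 (-0.78 ± 0.04, adjusted p = 1.48e-13). MT-RNR2, of the large subunit, differed by -0.28 ± 0.04. The tRNA for proline, MT-TP, had 145, 149 and 134 CPM against 234, 256 and 231 CPM (-0.75 ± 0.05). Of the 13 protein genes 5 were lower and 2 higher, with a median of 0.03. MT-ND2, a complex I subunit, had 4765, 5677 and 3594 CPM against 5829, 6585 and 5806 CPM (-0.40 ± 0.06), and MT-ND1 differed by -0.37 ± 0.05. MT-CYB, of complex III, had 5449.5, 5474 and 4439 CPM against 4338, 4562 and 4313 CPM (0.21 ± 0.04); its libraries overlapped, and the call was lost with all 12 libraries in the fit. In that fit no protein gene was higher and 2 were lower, and without the treatment block 2 were higher and 2 lower. The balance turned when a CeO2 library was left out, to 7 higher and 2 lower without that of shNRF2 and 6 higher and 2 lower without that of shUTX, and with no filter on low counts it was 5 and 5. The shNRF2 CeO2 library had 7.41% of its counts on mitochondrial entries, against 8.83% and 8.91% in the other shNRF2 libraries and 8.20% to 8.72% in shUTX; its part in these calls was not tested beyond leaving it out. MT-ATP6, the other higher gene, at 0.21 ± 0.05, also lost the call with DESeq2 and with 1 library left out. Of 9 nuclear genes of the respiratory chain and ATP synthase 4 were higher and 1 lower, none by more than 1.32-fold, the value of NDUFS7 (0.40 ± 0.05). With all 12 libraries none of these 9 was called, and with DESeq2, or without the shUTX H2O2 library, 1 was higher and none lower. With the length trend removed 1 was higher and 4 lower, and the median went from 0.11 to -0.07. With the centred length trend removed 2 were higher and 1 lower, with a median of 0.06.

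In the list of cell cycle inhibitors and their neighbours on chromosome 9 all 5 genes were tested and lower in shNRF2, with a median of -0.48. The list was chosen and does not hold every tested gene of that region. CDKN2B, an inhibitor of the kinases CDK4 and CDK6 (chr9:22002903-22009363), had 74, 92.2 and 71.8 CPM against 125, 173 and 124 CPM, 1.77-fold lower (-0.82 ± 0.06, adjusted p = 2.07e-11). The H2O2 library was the highest within each line. MTAP, the enzyme that salvages methylthioadenosine, had 263, 264 and 251 CPM against 412, 383 and 405 CPM (-0.62 ± 0.05), and KLHL9, a ubiquitin ligase adaptor, differed by -0.42 ± 0.06. CDKN2A, which encodes a further CDK inhibitor and an activator of p53, had 162, 186 and 172 CPM against 209, 238 and 226 CPM (-0.37 ± 0.05); it overlaps CDKN2B-AS1 on the other strand and lost the call with all 12 libraries in the fit, where 3 of these 5 genes were lower. CDKN2B-AS1 itself differed by -0.48 ± 0.17 and lost the call under 7 alternatives.

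Genes of mitosis, replication and repair went both ways, 4 higher and 9 lower of 16 tested, with a median of -0.16. TERT, the catalytic subunit of telomerase (chr5:1253147-1295069), had 11.6, 18.1 and 9.74 CPM against 19.8, 21.9 and 19.2 CPM (-0.65 ± 0.14, adjusted p = 0.000481); the shNRF2 library after H2O2 came close to the lowest of shUTX. CEP72, a centrosome protein, differed by -0.52 ± 0.08, BRD9, a bromodomain subunit of a BAF chromatin remodelling complex, by -0.51 ± 0.05, NUP155, of the nuclear pore, by -0.40 ± 0.04, and RAD1, of the checkpoint clamp, by -0.40 ± 0.05. GADD45B, a stress-induced gene, was higher, with 86.4, 85 and 88.2 CPM against 54.3, 76.3 and 65.3 CPM (0.41 ± 0.08), and lost the call with all 12 libraries or with the length trend removed. BRD9 and RAD1 overlap TRIP13 and BRIX1 on the other strand. With all 12 libraries 1 gene of this list was higher and 7 lower.

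Chromatin modifiers and their partners were 6 higher and 4 lower of 20 tested, with a median of -0.04. That share of calls is close to that of all entries (42.7%, or 50.8% from 5 CPM) and below that of all tested members (62%). The balance turned to 5 higher and 8 lower with the length trend removed and to 6 and 7 without the shUTX H2O2 library. With the centred length trend removed it was 7 higher and 3 lower. KDM4B, a demethylase of lysine 9 of histone H3, had 104, 126 and 117 CPM against 74.7, 96.7 and 86.5 CPM (0.43 ± 0.06), and TLE5, of the Groucho family of corepressors, 754, 763 and 813 CPM against 585, 624 and 601 CPM (0.37 ± 0.04). DOT1L, the methyltransferase of lysine 79 of histone H3, was lower, with 300.0, 318 and 299.9 CPM against 368, 380.0 and 380.3 CPM (-0.30 ± 0.04). TLE6, another gene of the Groucho family, had 16, 12 and 19 counts against 1, 0 and 1; the counts of shUTX are too few for a fold. HMG20B, at 0.31 ± 0.05, lost the call with all 12 libraries in the fit, and TLE2, at 0.95 ± 0.25, with DESeq2; under either alternative 4 genes of the list were higher and 2 lower.

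The list of developmental transcription factors, which also holds ELAVL2, had 2 higher and 8 lower of 13 tested, with a median of -0.16. IRX1 and IRX4, Iroquois homeobox genes of chromosome 5, were the higher pair. IRX1 had 16.4, 16.9 and 18.3 CPM against 7.43, 9.28 and 8.11 CPM (1.06 ± 0.15) and IRX4 128, 138 and 132 CPM against 89.8, 87.4 and 76.3 CPM (0.66 ± 0.06). ONECUT3, a homeobox factor of the ONECUT family (chr19:1752373-1780988), was lower in shNRF2, with 10.4, 13.6 and 10.3 CPM against 17.3, 23.6 and 16.7 CPM (-0.74 ± 0.13, adjusted p = 6e-05). In the control line it stood at 2.52, 3.34 and 1.83 CPM, below both lines. ELAVL2, an RNA-binding protein of neurons, had 55.7, 46.9 and 55.8 CPM against 74.7, 68.3 and 74.2 CPM (-0.45 ± 0.07). TGIF1, a homeobox repressor of TGF-beta signalling, differed by -0.28 ± 0.06 and ZBTB14, a zinc finger factor, by -0.31 ± 0.09; TGIF1 lost the call with the centred length trend removed and ZBTB14 under 3 alternatives. With all 12 libraries, or without the shNRF2 CeO2 library, 2 genes of the list were higher and 4 lower.

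Among genes of protein turnover 12 of 22 tested were lower in shNRF2 and 3 higher, with a median of -0.22. DNAJA1, a partner of the chaperone HSP70, had 1139, 1096 and 1154 CPM against 1711, 1589 and 1627 CPM (-0.54 ± 0.04), UBAP2 differed by -0.52 ± 0.05 and UBE2R2, a ubiquitin-conjugating enzyme, by -0.51 ± 0.04. CHMP5, of the ESCRT machinery that sorts membrane proteins (chr9:33264879-33282069), went the other way, with 228, 232 and 240.3 CPM against 124, 117 and 118 CPM, 1.96-fold higher (0.97 ± 0.05, adjusted p = 6.68e-14). DNAJB5, another partner of HSP70, was higher at low counts, 30, 22 and 24 against 8, 5 and 8 (1.55 ± 0.36).

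Of 14 tested genes of the cytosolic ribosome and its assembly 8 were lower and 1 higher, with a median of -0.18. BRIX1, which assembles the large subunit, had 237, 231 and 213 CPM against 359, 327 and 334 CPM (-0.58 ± 0.05), and NOL6, of the small subunit's precursor, 492, 499 and 449 CPM against 679, 682 and 684 CPM (-0.51 ± 0.04). NSUN2, which methylates cytosine in tRNA, differed by -0.49 ± 0.04, EXOSC3, of the RNA exosome, by -0.46 ± 0.05 and PAIP1, a partner of poly(A)-binding protein, by -0.28 ± 0.04. POLR1E, a subunit of RNA polymerase I, differed by -0.27 ± 0.06 and lost the call without the shNRF2 CeO2 library. With the length trend removed 12 of these 14 were lower and none higher, and with the centred length trend removed 10 were lower and none higher. RNA polymerase II, Mediator and RNA processing genes were 5 higher and 8 lower of 17, with a median of -0.09. MED16, a Mediator subunit, had 281, 270.4 and 306 CPM against 207, 209 and 224 CPM (0.43 ± 0.05), CIRBP, a cold-inducible RNA-binding protein, differed by 0.37 ± 0.04 and GTF2F1, of the general factor TFIIF, by 0.34 ± 0.04. YJU2, a splicing factor, differed by 0.33 ± 0.06 and lost the call with the length trend removed. MED10 and SMU1, at -0.22 ± 0.05 and -0.21 ± 0.04, lost it with all 12 libraries in the fit, where 4 genes of this list were higher and none lower; with DESeq2 4 were higher and 4 lower.

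Receptors and secreted factors held several of the larger differences. IL7R, the receptor chain for interleukin 7 that also binds thymic stromal lymphopoietin (chr5:35852695-35879603), had 617, 545 and 567 CPM against 247, 283 and 220.0 CPM, 2.32-fold higher (1.21 ± 0.06, adjusted p = 3.46e-15). PTGER4, a prostaglandin E2 receptor, had 58.2, 70.9 and 57.1 CPM against 37.2, 47.8 and 31.5 CPM (0.69 ± 0.08). OSMR, the oncostatin M receptor, differed by 0.18 ± 0.04 and lost the call with all 12 libraries in the fit. PRLR, the prolactin receptor, was lower at low counts, 5, 12 and 4 against 18, 28 and 19 (-1.87 ± 0.38), and IL11RA higher, 32, 28 and 26 against 9, 6 and 10 counts (1.49 ± 0.34), with exons shared with GALT. NPR2 differed by -0.45 ± 0.18 and lost the call under 6 alternatives. In this list 4 of 7 tested genes were higher and 2 lower. CCL28, a chemokine of epithelia, was lower, with 43.7, 41.4 and 41.8 CPM against 57.9, 63.2 and 61 CPM (-0.52 ± 0.08), and with LRG1 was 1 of the 2 genes called among 4 tested chemokine, complement and acute phase genes.

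In the list of matrix genes, proteases and inhibitors 4 of 9 tested were higher and 1 lower. ADAMTSL5, a secreted relative of the ADAMTS proteases (chr19:1505018-1513604), had 23.1, 31.4 and 25.9 CPM against 9.34, 11.7 and 7.17 CPM (1.53 ± 0.14). RECK, an inhibitor of matrix metalloproteases, had 7.76, 7.4 and 7.97 CPM against 4.0, 4.2 and 3.43 CPM (1.00 ± 0.23). PCSK4, a proprotein convertase, had 19, 18 and 15 against 3, 4 and 1 counts (2.39 ± 0.49). Its exons overlap REEP6, a shaper of endoplasmic reticulum on the other strand, which had 23.7, 31.4 and 28.2 CPM against 7.62, 8.05 and 9.36 CPM (1.73 ± 0.14, adjusted p = 9.43e-11). TMPRSS9, a membrane serine protease, differed by 0.75 ± 0.29 with overlapping libraries and lost the call under 11 alternatives. Without any 1 of the shNRF2 libraries 2 genes of this list were higher and 1 lower. ADAMTS12, a secreted metalloprotease (chr5:33523535-33892192), was lower, with 132, 164 and 112 CPM against 199, 262 and 222 CPM (-0.75 ± 0.06, adjusted p = 1.66e-10). The junction list added no gene beyond TJP3 and PKP3, both higher, of 4 tested.

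ARHGAP28, PLCXD3 and MTCL1 stood furthest below shUTX among the genes named by size, ARHGAP28 and MTCL1 being cytoskeleton genes. ARHGAP28, a GTPase-activating protein (chr18:6729718-6915716), had 5, 1 and 6 counts in shNRF2 and 53, 63 and 70 in shUTX. That is 0.705, 0.164 and 0.759 CPM against 10.1, 11 and 10.9 CPM, 18.3-fold lower (-4.19 ± 0.33, adjusted p = 1.34e-10), and its size rests on few counts in shNRF2. PLCXD3, of the phospholipase C X-domain proteins (chr5:41306954-41510628), had 5.64, 3.12 and 5.19 CPM against 25.4, 34.7 and 26.4 CPM, 6.0-fold lower (-2.58 ± 0.17, adjusted p = 5.33e-12). MTCL1, which crosslinks microtubules (chr18:8705661-8832778), had 15.5, 13.3 and 15.7 CPM against 36.8, 39.7 and 39.3 CPM, 2.59-fold lower (-1.37 ± 0.11, adjusted p = 1.34e-10). For all 3 the control line stood near shNRF2, with 1.1, 0.669 and 0.846 CPM of ARHGAP28, 2.83, 4.28 and 3.81 CPM of PLCXD3 and 16.2, 17.1 and 20 CPM of MTCL1. RAI14, which binds actin, had 194, 189.6 and 169 CPM against 293, 268 and 292 CPM (-0.63 ± 0.05) and MYL12A, a myosin light chain, differed by -0.38 ± 0.06. PDZD2, a protein of PDZ domains, was higher, with 255, 289.5 and 244 CPM against 139, 157 and 141 CPM (0.85 ± 0.05), as was TLN1, which couples integrins to actin (0.38 ± 0.04). In all, 6 of the 17 tested cytoskeleton genes were higher and 7 lower. With all 12 libraries in the fit 2 were higher and 4 lower.

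Enzymes of sugars and lipids went both ways. GNE, with which sialic acid synthesis begins (chr9:36214441-36277056), had 89.4, 92.9 and 85.7 CPM against 168, 202 and 171 CPM, 2.01-fold lower (-1.01 ± 0.06, adjusted p = 1.78e-13). GALT, of galactose breakdown, differed by 0.37 ± 0.10 and lost the call with DESeq2. With PGGHG higher and B4GALNT4 lower, 2 of 7 tested glycan genes were higher and 2 lower. FUT3, a fucosyltransferase, had 9.73, 21 and 11.4 CPM against 13.5, 15.8 and 10.6 CPM and did not pass. Of 15 tested lipid genes 5 were higher and 7 lower. Beside PLIN4 and PLCXD3, ABCA7, a lipid transporter, had 108, 132 and 117 CPM against 56, 68.8 and 62.2 CPM (0.93 ± 0.06), HACD4, of fatty acid elongation, 70.9, 68.4 and 65.9 CPM against 44.2, 42.4 and 45.2 CPM (0.64 ± 0.08), and PLIN3, a lipid droplet coat protein, 459.7, 461 and 474 CPM against 302, 320.1 and 298 CPM (0.60 ± 0.04). AMACR, a racemase of branched-chain fatty acids, was lower (-0.68 ± 0.14). GAMT, which makes creatine (chr19:1397026-1401570) and stands in no list, had 22.6, 31.6 and 24 CPM against 6.86, 7.0 and 6.24 CPM, 3.88-fold higher (1.96 ± 0.14, adjusted p = 3.26e-11).

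Solute carriers were 2 higher and 5 lower of 7 tested. SLC9A3, a sodium and proton exchanger (chr5:470458-524332), had 28.1, 31.2 and 28.7 CPM against 47.3, 52.7 and 54.4 CPM (-0.81 ± 0.09), and its exons overlap EXOC3 and other genes. SLC12A7, a potassium and chloride cotransporter, had 153, 177 and 158 CPM against 245, 301 and 265 CPM (-0.73 ± 0.05). SLC1A3, a glutamate transporter, was higher, with 1116, 883 and 1056 CPM against 734, 617 and 718 CPM (0.56 ± 0.04), as was ANKH, which exports pyrophosphate and ATP (0.26 ± 0.06). MFSD12, at -0.27 ± 0.05, lost the call with all 12 libraries in the fit. Genes of RAS, kinase and G protein signalling were 6 higher and 2 lower of 14, a share of calls near that of all tested members (62%). MOB3A, of the MOB family of kinase adaptors, had 145, 125 and 137 CPM against 86.5, 80.5 and 81.9 CPM (0.71 ± 0.06), GNA15, a G protein alpha subunit, differed by 0.31 ± 0.05 and PRKAA1, a catalytic subunit of AMPK, by -0.38 ± 0.04. MAP2K2, at -0.26 ± 0.04, lost the call with all 12 libraries in the fit, MOB3B, at 0.20 ± 0.05, under 3 alternatives and RASSF7, at 0.17 ± 0.05, under 7, and with the length trend removed RASSF7 stood at -0.02. With the length trend removed 4 genes of this list were higher and 5 lower, and the median went from 0.01 to -0.06. With the centred length trend removed 5 were higher and 2 lower, with a median of 0.07. In the 12-library fit 2 were higher and 1 lower, with DESeq2 2 and 2, and without the untreated shUTX library 3 and 2.

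Markers of other cell types were looked for among the members. Of 13 such genes 4 passed the filter; TEK, of endothelium, and ATCAY, of neurons, had no count in any of the 6 libraries, and SLC45A2, of melanocytes, had 1. Their summed level in plain CPM ran from 1297 to 1390.0 in shNRF2 and from 474 to 556 in shUTX, and without IL7R and FYB1 from 58.3 to 64.3 and from 69.8 to 75.1. FYB1, an adaptor of T cells and other blood cells (chr5:39105255-39274528), had 684, 664 and 677 CPM in shNRF2, 192, 212 and 186 CPM in shUTX and 442, 526 and 515 CPM in the control line (1.78 ± 0.05, adjusted p = 2.38e-20). The lowest of the 9 libraries of these 3 lines still had 186 CPM of FYB1 and 220.0 CPM of IL7R. MATK, a kinase of blood cells, had 21, 43 and 33 counts in shNRF2 and 1, 4 and 1 in shUTX, too few in shUTX for a fold. ELAVL2, a neuronal marker, was lower. A part of other cells in these differences was not tested, and in bulk RNA fewer cells of a type and less RNA per cell cannot be told apart.

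Several named genes stand outside the lists. TMEM8B, a membrane protein, had 6.63, 8.38 and 6.96 CPM against 2.48, 2.1 and 3.74 CPM (1.38 ± 0.26), and the antisense RNA DLGAP1-AS1 5.5, 8.38 and 7.85 CPM against 3.43, 2.63 and 2.96 CPM (1.27 ± 0.26). Exons of TMEM8B overlap HINT2 and OR13E1P on the other strand, which leaves part of its reads uncertain. On the lower side, ANKRD18B, an ankyrin repeat protein, had 25.8, 29.3 and 30.4 CPM against 48, 44.1 and 51.6 CPM (-0.75 ± 0.09). The processed pseudogenes HSPD1P1, at 71.1, 66.3 and 72.5 CPM against 127, 122 and 125 CPM (-0.83 ± 0.06), and EEF1A1P13, at 11.3, 11 and 8.98 CPM against 18.5, 14.5 and 18.4 CPM (-0.73 ± 0.15), may hold reads of their parent genes and are uncertain.

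**Figure D4:**
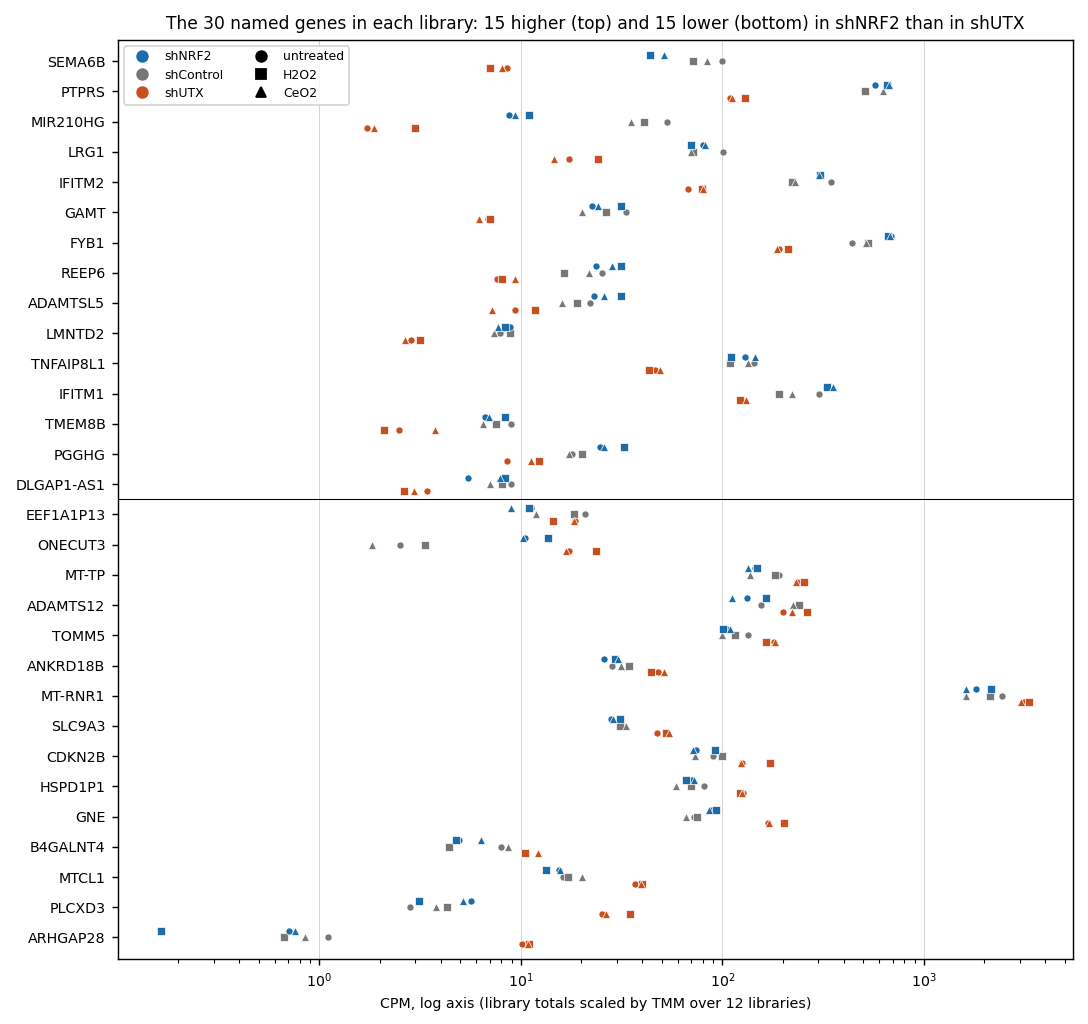
CPM of the 30 named genes in each shNRF2, shControl and shUTX library on a log axis, 15 higher and 15 lower in shNRF2, with line by colour and treatment by marker. The shNRF2 and shUTX points of every gene lie apart, and the shControl points lie nearer to shNRF2 for 28 of the 30.

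Against the control hairpin line, which took no part in the fit, shNRF2 was the nearer line for 217 of the 292 called members, or 74.3%, and for 28 of the 30 named genes (15 higher and 13 lower in shNRF2). Over all called entries the share was 72.1%, so the members do not stand apart in this. With only the exposed control libraries, an alternative chosen after the untreated control library was seen to stand apart, the shares were 78.1% and 77.8%, and 27 of the named genes were nearer to shNRF2. The mean of the control libraries lay above all 6 libraries for 72 called members and below all 6 for 27. These are means of libraries set side by side, with no test.

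Most called differences had 1 direction in all treatments, which the calling itself favours. Of the 292 called members 289 had the same sign in the untreated, H2O2 and CeO2 pairs, and the fit assumes 1 difference for all treatments. The calls rest on these same pairs, so a gene whose sign differed between them could hardly be called. That count is therefore no separate measure of agreement among treatments. Among the 267 called members with at least 5 CPM and the same sign, the median size of the log2 difference (log2 of CPM + 0.5) was 0.37 untreated, 0.37 after H2O2 and 0.43 after CeO2. The smallest of the 3 was the H2O2 pair for 43.4% of them, against 40.4% of 3456 entries outside the members. In the order untreated, H2O2, CeO2, the gap of LRG1 was 2.18, 1.51 and 2.44, narrowest after H2O2, and that of PLCXD3 -2.07, -3.28 and -2.24, widest after H2O2. With 1 library for each combination these values have no error.

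**Figure D5:**
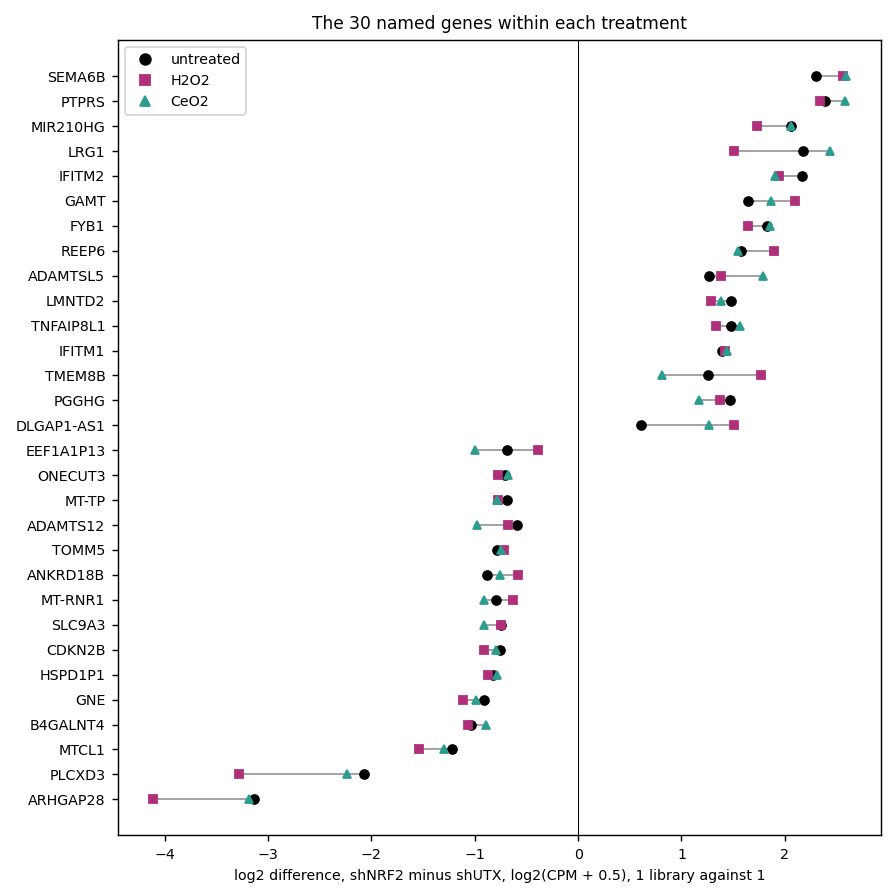
Log2 difference of shNRF2 minus shUTX, on log2(CPM + 0.5), within each treatment for the 30 named genes, 1 library against 1, with the markers of a gene joined by a line. Every marker of the upper 15 genes lies above 0 and every marker of the lower 15 below 0, which the choice of genes with 1 sign in all treatments fixes.

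Few members changed over 2-fold with exposure within either line. With 1 library for each combination and no test, 3 of 385 members with at least 5 CPM changed over 2-fold after H2O2 in shNRF2 (0.779%, against 0.348% of all 7470 such entries) and 2 in shUTX (0.519%, against 0.308%). After CeO2 there were 2 in shNRF2 (0.519%, against 0.107%) and 1 in shUTX (0.26%, against 0.187%). CBARP, a modulator of calcium channels, had 61 counts untreated and 124 after H2O2 in shNRF2, and 59 and 96 in shUTX. FUT3 had 69 and 128 counts in shNRF2, and 71 and 90 in shUTX. The other members past 2-fold were the pseudogenes SLC4A1APP1 and CLIC4P1 and the antisense RNAs ANXA2R-AS1 and RETREG1-AS1. These counts are so few that their distance from the background rests on single genes.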

How the data were processed

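RNA of 12 HaCaT libraries, 1 for each combination of hairpin and treatment, was read as raw counts per gene, which the authors deposited in 2 tables. Trimmomatic 0.39, HISAT2 2.2.1, SAMtools 1.12, HTSeq 0.11.1 and the build GRCh38 are named, per the submitters' processing notes; the sources used here give no settings, strand use or annotation release. Untreated libraries stand in both tables and differ in 1 value; the H2O2 table was used. Coordinates come from GENCODE release 29 and promoters from RefSeq.

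Counts of the 6 libraries (at least 1 CPM in at least 3) were scaled by TMM and fitted with edgeR 4.0.16 (R 4.3.3) on treatment plus hairpin line; SE is the size of the log2 difference divided by the square root of F. DESeq2 1.42.0 and limma 3.58.1 were alternatives. On simulated counts of 10181 genes with 50 planted at each fold, edgeR recovered 86% at 1.5-fold, 98% at 2-fold and 100% at 3-fold and 4-fold, with 7 calls not planted. Folds were planted only in genes averaging at least 5 CPM. The simulated spread followed level alone, with no treatment effect and far fewer changed genes than were called in the data. These shares therefore do not carry over to genes with fewer counts or to the calls reported here. Printed CPM use library totals scaled by TMM, a form adopted after plain CPM had been seen. Totals of 5388335 to 7670446 counts set the precision, and intervals cover counting error only.

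The members and gene lists were chosen with earlier results of these data known. Named genes are the 15 highest and 15 lowest called members, among those averaging 5 CPM or more with 1 sign in all treatments, plus the called members of each list with the largest differences, up to 6; members that did not pass, neighbours and further list members were named after their values were seen. Comparisons with shMLL1 were left out, and 1 gene that the rule names is not reported here.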

Additional observations from a re-analysis of the deposited data

Results flagged for a closer look

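Members that changed over 2-fold in any exposure pair were searched for those whose untreated to exposed differences went one way for both agents in shNRF2 and the opposite way for both in shUTX, and 2 were found. The difference between the lines was not tested, each value is 1 library against 1, and the limit to members over 2-fold was set after an earlier form of the search had given none. SLC4A1APP1, a processed pseudogene (chr9:30558880-30559481), had 129 counts untreated, 9 after H2O2 and 8 after CeO2 in shNRF2, and 28, 122 and 36 in shUTX. The mean response in shNRF2 lay 4.05 below that in shUTX, a difference of -4.05 on log2(CPM + 1). RETREG1-AS1, an antisense RNA (chr5:16615926-16629969), had 52, 64 and 61 counts in shNRF2 and 83, 61 and 38 in shUTX, a difference of 1.17 on the same scale. In each gene 1 of the 4 responses lay close to 0: 0.07 for SLC4A1APP1 after CeO2 in shUTX and 0.06 for RETREG1-AS1 after CeO2 in shNRF2.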

How the results depend on the processing

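With all 12 libraries in the fit the count of called members went from 292 to 188, that of list genes from 186 to 120 and that of all entries from 4351 to 2540; DESeq2 called 2432 entries and 218 members. Leaving out each library in turn gave 250 to 281 members, 3526 to 3909 entries and 167 to 183 list genes. The other alternatives kept these counts within 1.5 times. With the trend of values with transcript length removed, which was fitted on 359 nuclear coding members and taken out of all nuclear members tested but of no other entry, 303 members were called, 108 higher and 195 lower; a form centred on each library's median, chosen after seeing the data, gave 134 higher and 150 lower. Of 143 genes followed under 18 alternatives, 109 kept the call wherever they were tested and 34 lost it at least once, none of them among the 30 named by size. The 6 that changed sign did so with the length trend removed, to -0.067 for MICOS13, -0.0413 for ATP5F1D, -0.1724 for NDUFS6 (-0.047 when centred), -0.0529 for NUDT2, -0.0295 for STAP2 and -0.0155 for RASSF7. In a larger set, all 292 called members, 171 kept the call in every alternative that tested them. A pseudocount of 0.1 CPM took the members over 2-fold after H2O2 in shNRF2 from 3 to 4. Treatment pairs the libraries and is a block in the test; without it 249 members were called. Genes under 5 CPM rest on few counts: 18 of the called members over 2-fold lie there.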
